A study of Homo sapiens with 6 samples.

Results

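Fatty acid synthesis from citrate is described here through 10 genes, ACLY, ACACA, ACACB, FASN, SLC25A1, ME1, THRSP, MID1IP1, OXSM and MCAT, which were chosen by gene symbol from the 63241 genes of the deposited expression table; all 10 were found. The cells were MDA-MB-231, a human breast cancer line of triple-negative type. Of 6 RNA-seq libraries, 3 were from cells given ArA, which the study's title spells out as arachidonic acid, at 40 μM for 24 h, and 3 were from non-treated cells, for which the labels name no vehicle. Both groups were the same line in the same serum-containing medium, so lipids from serum were present in both, and no lipid or enzyme activity was measured in these files. Values are TPM, each gene's share of all transcripts in a library after division by transcript length, so levels can be compared between genes. The labels do not state whether replicates were separate cultures, and the p-values therefore reflect the spread among these libraries alone, which may be technical.

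Cells build palmitate from citrate that leaves the mitochondrion. The citrate carrier SLC25A1 exports it, ATP citrate lyase (ACLY) splits it into acetyl-CoA, acetyl-CoA carboxylase (ACACA, with ACACB at the mitochondrial surface) makes malonyl-CoA, and fatty acid synthase (FASN) joins these units with NADPH, part of which comes from malic enzyme (ME1). THRSP and MID1IP1 are related small proteins that act on lipogenesis, MID1IP1 by promoting polymerisation of acetyl-CoA carboxylase, while MCAT and OXSM belong to a separate synthase inside mitochondria that supplies the precursor of lipoic acid. In rodent liver, polyunsaturated fatty acids are known to lower transcripts of lipogenic genes, in part through the transcription factor SREBF1.

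Each of the 9 genes that could be tested had overlapping ArA and control values, and none passed the test across all genes. The 4 abundant genes of the route, FASN, ACLY, ACACA and SLC25A1, had ArA means 1.01 to 1.09 times the control means, and the widest difference of means was that of the mitochondrial synthase OXSM, at 1.31-fold with overlapping groups. In a limma fit of log2(TPM + 1) across all genes that averaged 1 TPM or more over the 6 libraries, 9 of the 10 genes were tested and 0 passed an adjusted p of 0.05 (Benjamini-Hochberg over 12999 genes), against 0.0231% of all tested genes. At an unadjusted p under 0.05 there were 0 of 9, against 2.78% of all tested genes, and 0 of 9 had ArA values that did not overlap the control values, against 8.05%. Of the 9 log2 fold changes, 8 were positive, against 68.9% of all tested genes, and their median was 0.12, beside 0.06 over all tested genes. The count of positive values was 6 with median-of-ratios scaling (51.0% of all tested genes), with quantile normalization (51.8%), with TPM recomputed without mitochondrially encoded genes (49.3%) and after a correction for GC content (53.3%), with medians over the 9 genes of 0.06 to 0.07; the first 3 of these are called the other scalings here. Without control replicate 1 it was 5 (70.2% of all tested genes), with a median over the 9 genes of 0.02 beside 0.08 over all tested genes, and without control replicate 3 it was 6 (77.7%). In bulk RNA, fewer cells expressing a gene and less of its RNA per cell cannot be told apart.

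**Figure D1:**
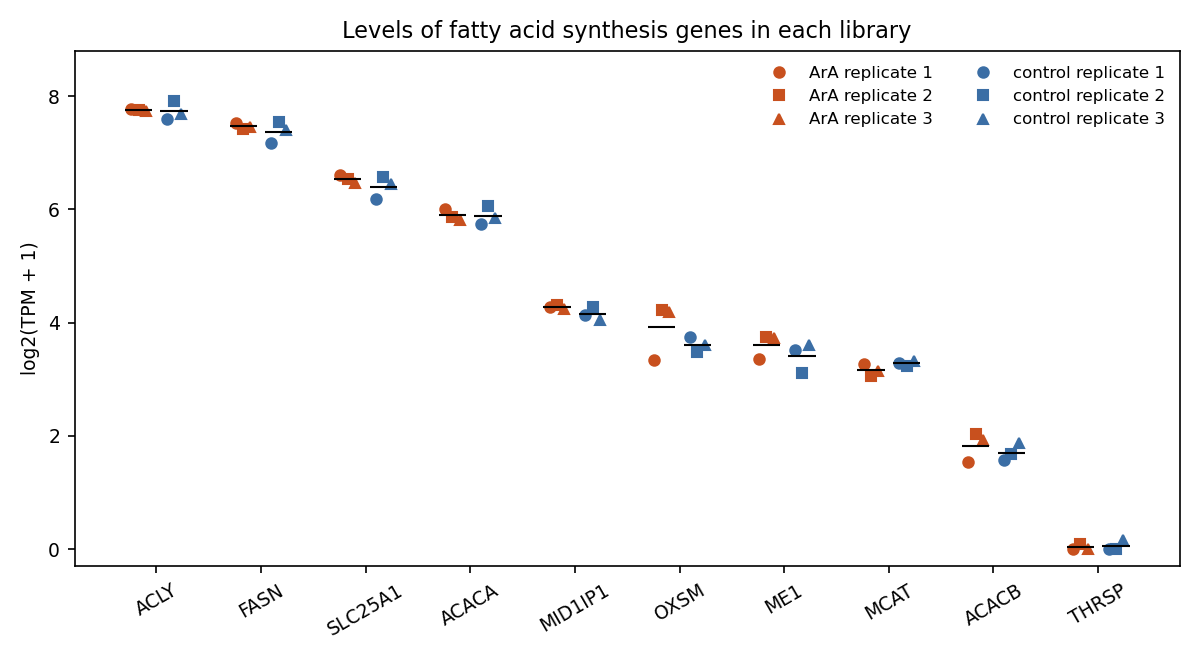
Level of each of the 10 genes on the log2(TPM + 1) scale in the 3 ArA libraries (left in each pair) and the 3 control libraries (right), ordered by mean over 6 libraries; the bars are group means. ACLY and FASN stand highest, THRSP lies at or near 0, and the ArA and control points overlap for every gene.

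The 10 genes spanned a wide range of levels and kept 1 order by group mean in ArA and control cells. ACLY averaged 213 ± 16.1 TPM over the 6 libraries, FASN 171 ± 15.2 TPM, SLC25A1 87.8 ± 8.89 TPM and ACACA 58.5 ± 5.23 TPM (SD, n = 6), and their ranges overlapped neither each other nor that of the next gene. MID1IP1 at 17.6 ± 1.26 TPM, OXSM at 12.98 ± 3.66 TPM, ME1 at 10.5 ± 1.82 TPM and MCAT at 8.33 ± 0.600 TPM followed, and within these 4 each range overlapped that of its neighbour. ACACB averaged 2.43 ± 0.482 TPM, below MCAT in 6 of 6 libraries, and THRSP 0.0317 ± 0.0515 TPM. The 4 most abundant genes thus held most of the route's transcripts. They made up 92.2, 89.9 and 90.1% of the summed level of the 10 genes in ArA replicates 1, 2 and 3, against 90.2, 92.6 and 91.2% in control replicates 1, 2 and 3. That sum was 607, 592 and 588 TPM in the ArA libraries and 509, 633 and 565 TPM in the control libraries, so that the control libraries reached both lower and higher than the ArA libraries.

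Citrate export and cleavage come first (coordinates throughout are those of GENCODE v29 on hg38). SLC25A1 (ENSG00000100075; chromosome 22, 19175575 to 19178830, reverse strand, protein-coding) had 96.0, 91.5 and 87.3 TPM in ArA replicates 1, 2 and 3, against 71.3, 94.2 and 86.5 TPM in control replicates 1, 2 and 3. Control replicate 1 lay lowest and the other 5 libraries were mixed. Its log2 fold change was 0.13 (SE 0.12, limma adjusted p = 0.999), with a 95% interval that bounds the fold between 0.906 and 1.33, and without control replicate 1 it was 0.02. ACLY (ENSG00000131473; chromosome 17, 41866908 to 41930542, reverse strand, protein-coding) had 217, 214 and 212 TPM in the ArA libraries, against 192, 240 and 205 TPM in the control libraries. The 3 ArA values sat close together inside the control range. The log2 fold change of ACLY was 0.02 (SE 0.10, limma adjusted p = 0.999), with the fold bounded between 0.864 and 1.19, and its sign was negative under each of the 3 other scalings. A short transcript annotated antisense to ACLY, AC125257.2, lies inside its span over 156 bases and had 248, 95.7 and 0 TPM in the ArA libraries and 229, 179 and 184 TPM in the control libraries. Because TPM divides by length, few reads can give a high value for so short a gene, and its level is not compared with that of ACLY. ACLY stood 2.26, 2.33 and 2.43 times as high as SLC25A1 in the ArA libraries and 2.69, 2.55 and 2.37 times as high in the control libraries, with overlap (exact 2-sided permutation test, p = 0.2, adjusted p = 0.4 over the 6 ratios computed). Whether reads were assigned by strand is not stated, and reads of overlapping genes may therefore be mixed.

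The carboxylases make the malonyl-CoA that both feeds FASN and inhibits fatty acid entry into mitochondria. ACACA (ENSG00000278540; chromosome 17, 37084988 to 37406818, reverse strand, protein-coding) had 63.5, 57.5 and 55.1 TPM in the ArA libraries, against 52.2, 66.1 and 56.8 TPM in the control libraries, with a log2 fold change of 0.01 (SE 0.11, limma adjusted p = 0.999). Its fold was bounded between 0.838 and 1.21, and the sign was negative under each of the 3 other scalings. The ArA values again lay inside the control range. ACACB (ENSG00000076555; chromosome 12, 109116595 to 109268226, forward strand, protein-coding) had 1.89, 3.07 and 2.80 TPM in the ArA libraries, against 1.97, 2.19 and 2.66 TPM in the control libraries. These values interleaved, and the fold was bounded between 0.803 and 1.47. The log2 fold change of ACACB was 0.12 (SE 0.19, limma adjusted p = 0.999), and 0.02 without ArA replicate 2. Within a library, ACACA stood 33.6, 18.7 and 19.7 times as high as ACACB in the ArA libraries and 26.5, 30.2 and 21.4 times as high in the control libraries (exact 2-sided permutation test, p = 0.8, adjusted p = 0.9 over the 6 ratios computed). The cytosolic form was thus the main carboxylase transcript in all 6 libraries.

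FASN (ENSG00000169710; chromosome 17, 82078333 to 82098332, reverse strand, protein-coding), the multifunctional enzyme that releases palmitate, had 183, 170 and 175 TPM in the ArA libraries, against 143, 186 and 168 TPM in the control libraries. The groups overlapped, since control replicate 2 lay highest and control replicate 1 lowest. FASN averaged 176 ± 6.56 TPM in ArA and 166 ± 21.2 TPM in control libraries (SD, n = 3 each), a log2 fold change of 0.09 (SE 0.11, limma adjusted p = 0.999) with the fold bounded between 0.896 and 1.27. Without control replicate 1 the log2 fold change was -0.00491. In every library FASN was a little below ACLY, at 0.842, 0.795 and 0.827 of its level in the ArA libraries and 0.747, 0.772 and 0.821 in the control libraries (exact 2-sided permutation test, p = 0.2, adjusted p = 0.4, where the smallest p that 3 against 3 allow is 0.1). ME1 (ENSG00000065833; chromosome 6, 83210389 to 83431071, reverse strand, protein-coding), which makes NADPH from malate, had 9.27, 12.4 and 12.2 TPM in the ArA libraries and 10.5, 7.65 and 11.2 TPM in the control libraries. ArA replicates 2 and 3 lay above all controls and ArA replicate 1 between them, with a log2 fold change of 0.20 (SE 0.18, limma adjusted p = 0.999) and the fold bounded between 0.859 and 1.53. Without control replicate 2 the ME1 log2 fold change was 0.05, and without ArA replicate 1 it was 0.32.

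Of the pair of regulators, MID1IP1 was expressed in all 6 libraries and THRSP was listed at or near 0. MID1IP1 (ENSG00000165175; chromosome X, 38801432 to 38806537, forward strand, protein-coding) had 18.3, 18.9 and 18.0 TPM in the ArA libraries, against 16.5, 18.3 and 15.6 TPM in the control libraries. Only control replicate 2 reached into the ArA range. The log2 fold change was 0.13 (SE 0.10, limma adjusted p = 0.999) with the fold bounded between 0.923 and 1.29, and it was 0.07 under each of the 3 other scalings. Its annotated antisense gene, MID1IP1-AS1, was listed at 0, 0 and 0.57 TPM in the ArA libraries and at 0 in all 3 control libraries. THRSP (ENSG00000151365; chromosome 11, 78063861 to 78068351, forward strand, protein-coding), a thyroid hormone-responsive gene of liver and fat, was listed at 0, 0.07 and 0 TPM in the ArA libraries and at 0, 0 and 0.12 TPM in the control libraries, and it was not tested. Its whole span lies within the read-through gene NDUFC2-KCTD14 on the opposite strand.

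The mitochondrial synthase genes did not share a direction. OXSM (ENSG00000151093; chromosome 3, 25782917 to 25794534, forward strand, protein-coding), which performs the condensing step, had 9.18, 17.7 and 17.3 TPM in ArA replicates 1, 2 and 3, against 12.4, 10.2 and 11.2 TPM in control replicates 1, 2 and 3. ArA replicates 2 and 3 lay above every control library and ArA replicate 1 below every one. The log2 fold change was 0.31 (SE 0.24, limma adjusted p = 0.999), with the fold bounded only between 0.837 and 1.85, and without ArA replicate 1 it was 0.60 (unadjusted p = 0.00337, adjusted p = 0.900, limma). Because ArA replicate 1 was the ArA library below the controls, leaving it out separates the groups, and that fit is a description. OXSM overlaps NGLY1 on the opposite strand over 7123 bases, and NGLY1 had 13.2, 17.7 and 18.5 TPM in the ArA libraries and 19.0, 11.1 and 17.6 TPM in the control libraries. MCAT (ENSG00000100294; chromosome 22, 43132206 to 43143394, reverse strand, protein-coding), which loads malonyl groups onto the mitochondrial acyl carrier protein, had 8.60, 7.36 and 7.89 TPM in the ArA libraries, against 8.74, 8.40 and 8.98 TPM in the control libraries. Only ArA replicate 1 reached into the control range, and the log2 fold change was -0.12 (SE 0.11, limma adjusted p = 0.999) with the fold bounded between 0.764 and 1.11. The ratio of OXSM to MCAT was 1.07, 2.41 and 2.19 in the ArA libraries and 1.41, 1.21 and 1.24 in the control libraries, again with ArA replicate 1 below all controls (exact 2-sided permutation test, p = 0.4, adjusted p = 0.6). MCAT was the 1 gene of the 9 with a negative log2 fold change on TPM as deposited, and it was negative under each of the 3 other scalings too, where ACLY and ACACA joined it.

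**Figure D2:**
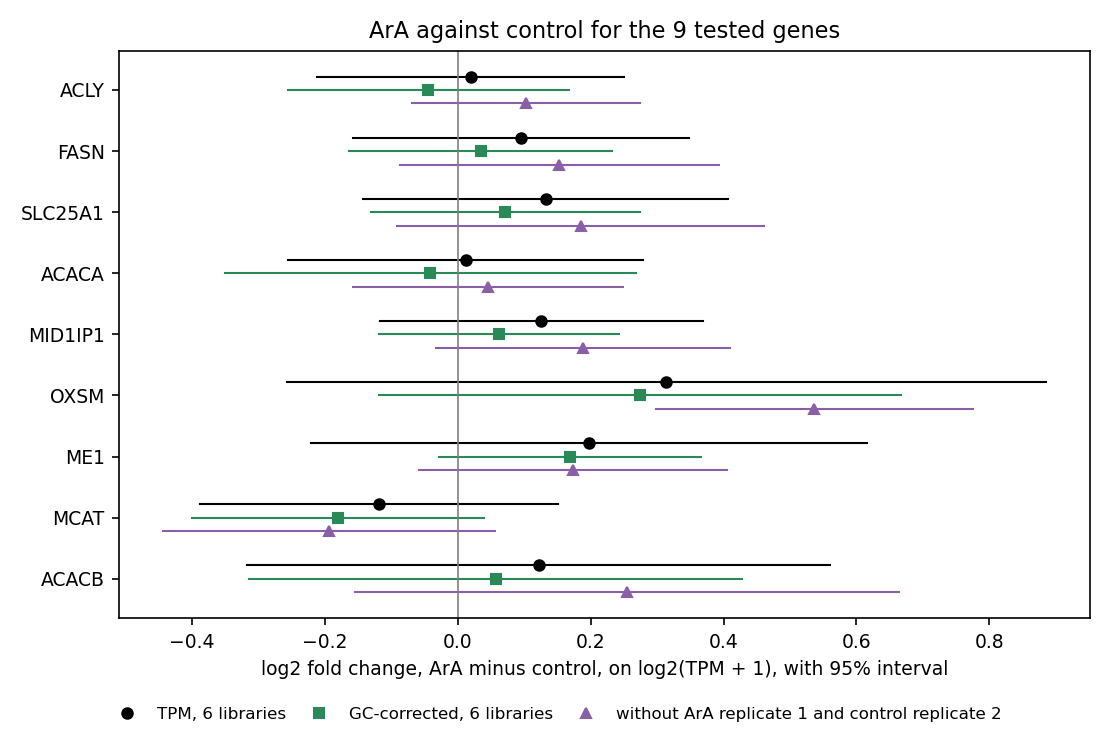
Log2 fold change of ArA over control for the 9 tested genes with 95% intervals from limma, on TPM of all 6 libraries (circles), after GC correction (squares), and without ArA replicate 1 and control replicate 2 (triangles). The circles lie between -0.12 and 0.31, and every interval crosses 0 except that of OXSM without those libraries.

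The 4 abundant genes shared their high and low control libraries. Control replicate 1 was the lowest of the 6 libraries for SLC25A1, ACLY, ACACA and FASN, and control replicate 2 was the highest for ACLY, ACACA and FASN. The coefficient of variation of ACLY was 1.23% in the ArA and 11.9% in the control libraries, that of FASN 3.73% in the ArA and 12.8% in the control libraries. For SLC25A1 it was 4.73% in the ArA and 13.9% in the control libraries, and for ACACA 7.39% in the ArA and 12.1% in the control libraries. It was larger in the control libraries for 6 of the 9 tested genes. The order was reversed for OXSM (32.6% in ArA, 9.85% in control), ACACB (23.9 and 15.5%) and MCAT (7.83 and 3.35%). With 3 libraries a group, these spreads were not tested against each other. The share of all tested genes with a larger spread in the control libraries was not computed. The count of 6 of 9 is therefore not read as a trait of these genes. ME1 and OXSM did not follow the 4 abundant genes, since ArA replicate 1 and control replicate 2 held the lowest values of both. On the log2(TPM + 1) scale, the mean of ArA replicate 1 and control replicate 2 less the mean of the other 4 libraries was -0.41 for ME1 and -0.53 for OXSM, against 0.22 for ACACA, 0.15 for ACLY, 0.17 for FASN and 0.18 for SLC25A1. This difference was -0.25 for ACACB, 0.08 for MID1IP1 and 0.04 for MCAT.

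**Figure D3:**
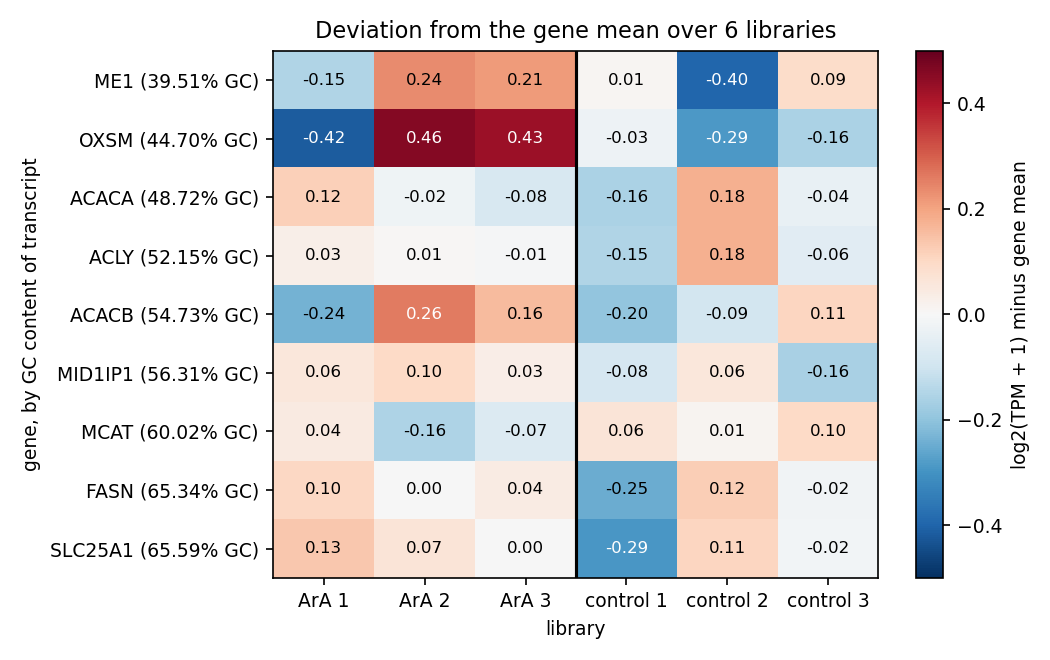
Log2(TPM + 1) of each tested gene in each library less the gene's mean over 6 libraries, with genes ordered by GC content of the longest transcript and ArA libraries left of control libraries. ME1 and OXSM, at the AT-rich end, are lowest in ArA replicate 1 and control replicate 2, where ACACA, ACLY, FASN and SLC25A1 are above their means. ACACB, at 54.73% GC, is below its mean in both of these libraries.

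The tested genes as a whole showed a trend with base composition in those same libraries. For the fifth of tested genes lowest in GC content, the median deviation from the gene mean was -0.30 in ArA replicate 1. In control replicate 2 it was -0.43, against 0.12 to 0.21 in the other 4 libraries. For the fifth highest in GC content it was 0.04, 0.04 and 0.01 in ArA replicates 1, 2 and 3. It was -0.12, 0.05 and -0.02 in control replicates 1, 2 and 3. At that end control replicate 1 lay lowest, and ArA replicate 1 and control replicate 2 did not stand apart from ArA replicate 2. The longest transcripts of ME1 and OXSM hold 39.51 and 44.7% GC, and those of FASN and SLC25A1 65.34 and 65.59%. Those of ACACA, ACLY and ACACB lie between, at 48.72, 52.15 and 54.73%. Their differences given above, 0.22, 0.15 and -0.25, fell as GC content rose. Those of ME1 and OXSM, lower in GC content, were -0.41 and -0.53. How much of the trend over all tested genes enters the values of single genes was not tested. After the trend was subtracted from each library, a correction chosen after seeing the data, 0 of the 9 genes passed in limma (0.0396% of all genes). In that fit 1 did not overlap between groups, which was ME1, higher in ArA cells (8.91% of all genes). The ME1 log2 fold change was 0.17 (SE 0.08, limma unadjusted p = 0.0831, adjusted p = 0.9997). Without ArA replicate 1 alone, ACACB, ME1 and OXSM were higher and MCAT lower in ArA cells with no overlap, 4 of 9 beside 23.6% of all tested genes. Without control replicate 2 alone, ACLY, FASN, SLC25A1 and MID1IP1 were higher and MCAT lower with no overlap, 5 of 9 beside 27.0%. Without both ArA replicate 1 and control replicate 2, which leaves 2 against 2 libraries, 7 genes were higher and MCAT was lower in ArA cells with no overlap, while ACACA overlapped. That is 8 of 9, where 44.4% of all tested genes did not overlap, and 0 passed in limma (0.0923% of all genes). OXSM was the 1 gene of the 9 with an unadjusted p under 0.05 (9.65% of all genes), at a log2 fold change of 0.54 (SE 0.09, limma unadjusted p = 0.00196, adjusted p = 0.468). ArA replicate 1 and control replicate 2 held the values by which most of the 9 genes overlapped between groups. They were left out with earlier results of these data known. The counts of 4, 5 and 8 of 9 therefore follow in part from that choice and are a description. The same holds for the OXSM p-values of the fits that leave out ArA replicate 1. With all 6 libraries weighted by their estimated quality (limma array weights), 0 of 9 passed (1.65% of all genes) and OXSM, MID1IP1 and MCAT had an unadjusted p under 0.05 (24.5% of all genes). Their log2 fold changes were 0.57, 0.23 and -0.23, with limma adjusted p = 0.0594, 0.0838 and 0.108. The weights were estimated from these same values and are not given here, so this fit is not independent of those that leave libraries out. Mitochondrially encoded transcripts took 32.1, 28.0 and 26.9% of all TPM in ArA replicates 1, 2 and 3 and 32.9, 32.0 and 31.6% in control replicates 1, 2 and 3, which scales every other gene.

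By distance between centred log2(TPM + 1) profiles over the 6 libraries, the nearest of all tested genes to FASN were FLOT2 and PLIN3, at root-mean-square differences of 0.0151 and 0.0186, set beside the 0.122 by which FASN varied about its own mean. For ACLY they were FKBP4 and BAG6, at 0.0133 and 0.0140, and for ACACA they were HSPA2 and EEF1A2, at 0.0192 and 0.0207. None of these neighbours was another gene of the route. With 6 libraries and 12999 candidate genes, these distances are a description of shared variation between libraries.

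The sequence just ahead of the start sites is shown for the 3 abundant genes that varied together and have an entry in the promoter table, and for MID1IP1, which holds the least common motif searched. The table (RefSeq, GRCh38.p14) matched 8 of the 10 genes, with 13 windows; FASN and OXSM had no entry. Each run is taken from the 250 bases before a RefSeq start, 5′ to 3′ on the gene's strand, and stops where an exon annotated in GENCODE v29 begins. Capitals mark matches on either strand to the sterol regulatory element pattern TCACNCCAC, the E-box CACGTG, the NF-Y box CCAAT or the Sp1 box GGGCGG, whose matches overlap in places.
ACLY, chr17:41919023-41919272, reverse strand: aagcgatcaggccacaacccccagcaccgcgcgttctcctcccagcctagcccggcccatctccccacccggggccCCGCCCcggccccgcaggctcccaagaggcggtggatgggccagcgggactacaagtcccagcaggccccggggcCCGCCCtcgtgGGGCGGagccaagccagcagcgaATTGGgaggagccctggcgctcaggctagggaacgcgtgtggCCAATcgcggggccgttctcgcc
ACACA, chr17:37359122-37359346, reverse strand: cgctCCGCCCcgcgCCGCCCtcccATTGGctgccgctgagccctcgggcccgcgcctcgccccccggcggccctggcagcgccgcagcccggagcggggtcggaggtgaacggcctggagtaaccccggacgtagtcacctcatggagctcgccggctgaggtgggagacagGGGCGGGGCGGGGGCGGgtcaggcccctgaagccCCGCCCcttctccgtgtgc
SLC25A1, chr22:19178831-19178986, reverse strand: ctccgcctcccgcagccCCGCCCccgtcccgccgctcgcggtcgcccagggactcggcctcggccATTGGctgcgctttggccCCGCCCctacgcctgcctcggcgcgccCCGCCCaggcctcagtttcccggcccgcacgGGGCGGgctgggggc
MID1IP1, chrX:38801209-38801431, forward strand: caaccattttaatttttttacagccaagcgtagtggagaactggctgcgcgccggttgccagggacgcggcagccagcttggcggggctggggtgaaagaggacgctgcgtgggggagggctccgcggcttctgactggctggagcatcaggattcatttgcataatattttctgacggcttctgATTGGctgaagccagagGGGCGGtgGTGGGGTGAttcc

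Each of the 4 stretches shown held NF-Y and Sp1 boxes, motifs that are common in human promoters. For ACACA this depends on the window, since its most upstream window held no NF-Y box and its most downstream one no Sp1 box. Over the 13 full windows of the 8 genes, 8 held an NF-Y box and 10 an Sp1 box. The windows of MCAT are almost the same stretch and those of ACLY overlap, so some boxes were counted more than once. The stretch of SLC25A1 held 4 Sp1 boxes and 1 NF-Y box, and that of ACACA, which precedes an internal start and is 1 of its 3 windows, held 6 Sp1 boxes and 1 NF-Y box. ACLY held 3 Sp1 and 2 NF-Y boxes ahead of an internal start, and MID1IP1 held 1 of each. Of 35116 human windows of 250 bases, 42.6% held an Sp1 box and 32.0% an NF-Y box. Their median GC content was 58.0%, while the 13 windows ran from 43.6 to 81.6%. The shares were not matched for GC content. The sterol regulatory element pattern was found in 1 of the 13 full windows, that of MID1IP1, on the opposite strand from 40 to 32 bases before the start, and in 0.883% of all windows. The E-box was found in 0 of the 13 windows and in 6.34% of all windows. A match describes letters in these windows and was not tested against the expression values.

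Around these genes, 5 further lists covered the supply of acetyl-CoA and citrate, NADPH supply, the other steps of mitochondrial synthesis and lipoylation, the control of lipogenic genes and of acetyl-CoA carboxylase, and the fate of malonyl-CoA and palmitate. Of their 78 genes, 70 were tested and 0 passed in either direction over all genes, beside 0.0231% of all tested genes, while 3 of 70 did not overlap between groups, beside 8.05%. In the acetyl-CoA and citrate list (18 tested) the median log2 fold change was 0.05 and in the NADPH list (14 tested) 0.05, near the 0.06 of all tested genes; both medians were negative, at -0.02 to -0.01, under the 3 other scalings. The medians of the remaining 3 lists stayed positive there but were smaller, at 0.04 to 0.05 for the mitochondrial list and 0.01 to 0.03 for the other two. The smallest p in the first belonged to SLC25A10, a mitochondrial dicarboxylate carrier, at 15.4, 14.5 and 12.3 TPM in the ArA libraries and 14.6, 20.4 and 17.0 TPM in the control libraries (log2 fold change -0.28, SE 0.15, limma adjusted p = 0.999). In the NADPH list it belonged to the transketolase gene TKT, at 397, 354 and 346 TPM in the ArA libraries and 320, 366 and 333 TPM in the control libraries. Both genes overlapped between groups.

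In the mitochondrial list (9 tested, median 0.10) the smallest p belonged to MECR, the reductase that completes each elongation round next to OXSM and MCAT. MECR had 17.1, 18.2 and 16.1 TPM in the ArA libraries and 14.5, 15.7 and 13.97 TPM in the control libraries, without overlap, and a log2 fold change of 0.20 (SE 0.10, limma adjusted p = 0.999). Among genes that control lipogenesis (20 tested, median 0.07), it belonged to MBTPS1, the protease that makes the first cut in SREBP precursors, at 81.2, 73.6 and 71.0 TPM in the ArA libraries and 69.2, 64.9 and 58.9 TPM in the control libraries, also without overlap (log2 fold change 0.22, SE 0.10, limma adjusted p = 0.999). SREBF1 itself had 74.4, 84.8 and 71.9 TPM in the ArA libraries, against 65.5, 84.5 and 57.4 TPM in the control libraries. INSIG1, an SREBP target that holds the SREBP complex in the endoplasmic reticulum, had 111, 100.5 and 109 TPM in the ArA libraries, against 133, 102 and 114 TPM in the control libraries. Both overlapped between groups, with log2 fold changes of 0.17 (SE 0.15) for SREBF1 and -0.12 (SE 0.11) for INSIG1. MLXIPL, which encodes the glucose-responsive factor ChREBP, was at or below 0.60 TPM in all 6 libraries.

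In the list on the fate of malonyl-CoA and palmitate, the desaturase genes SCD, FADS2 and FADS1 were abundant and overlapped between groups. Membership of this list does not place FADS2 and FADS1 on a path from palmitate to arachidonic acid. SCD, which makes monounsaturated fatty acids, had 960, 894 and 878 TPM in the ArA libraries and 878, 926 and 807 TPM in the control libraries. FADS2 had 536, 462 and 449 TPM in the ArA libraries and 451, 524 and 426 TPM in the control libraries, and FADS1, which forms arachidonic acid, 173, 155 and 158 TPM in the ArA libraries and 165, 150 and 152 TPM in the control libraries. Their log2 fold changes, 0.07 for SCD, 0.05 for FADS2 and 0.06 for FADS1, were close to the 0.06 of all tested genes. The smallest p of this list (9 tested, median 0.07) belonged to CPT1A, the mitochondrial acyltransferase that malonyl-CoA inhibits, at 58.6, 54.2 and 52.0 TPM in the ArA libraries and 40.9, 45.0 and 40.6 TPM in the control libraries. CPT1A did not overlap between groups (log2 fold change 0.37, SE 0.09, limma unadjusted p = 0.00460, adjusted p = 0.999), and it passed the threshold under array weights alone of the alternatives tried (adjusted p = 0.0233), where 1.65% of all tested genes passed. INSIG2, which like INSIG1 retains the SREBP complex, was the other gene of the 5 lists to pass under array weights, and is named for that reason after its values were seen. INSIG2 had 15.4, 20.7 and 22.6 TPM in the ArA libraries and 17.0, 14.4 and 13.3 TPM in the control libraries, with overlap (log2 fold change 0.36, SE 0.17, limma adjusted p = 0.999 without weights). MLYCD, which removes malonyl-CoA, was at or below 0.49 TPM in all 6 libraries.

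**Figure D4:**
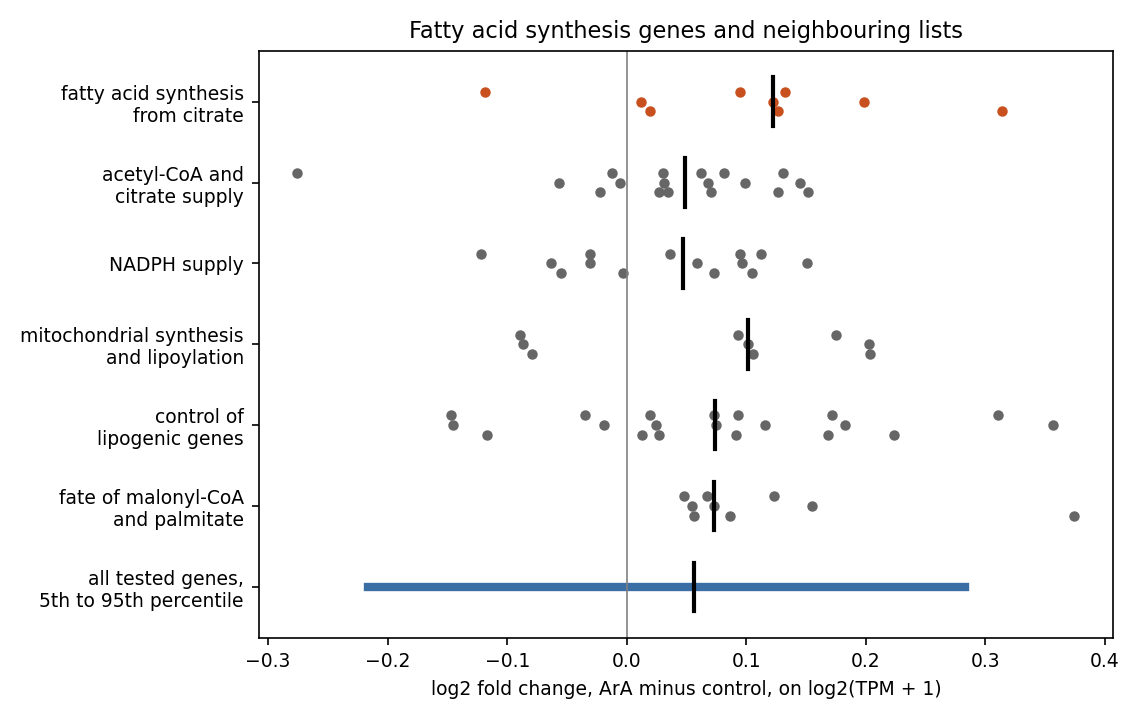
Log2 fold change of ArA over control for each tested gene of the route from citrate (orange) and of the 5 neighbouring lists (grey), with list medians as black bars; the blue bar spans the 5th to 95th percentile of all 12999 tested genes, from -0.22 to 0.28. The point at 0.37 is CPT1A and the orange point at 0.31 is OXSM.

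Markers of the labelled line were present. The 7 markers taken for MDA-MB-231 cells, VIM, CD44, KRT18, KRT8, SPARC, ZEB1 and AXL, each had a mean of at least 1 TPM. VIM had 1434 to 1515 TPM in ArA and 1335 to 1441 TPM in control libraries, while ZEB1 had 2.73 to 5.45 TPM over all 6. The keratin genes KRT8 and KRT18, at 343 to 439 and 257 to 327 TPM, were counted here and not among the luminal markers. Of the luminal markers, ESR1, PGR and CDH1 were at or below 0.17 TPM in all 6 libraries, while ERBB2 had 36.6 to 40.3 TPM in ArA and 32.0 to 41.8 TPM in control libraries. EPCAM, GATA3 and FOXA1 lay between 2.88 and 6.92 TPM, and the 7 luminal markers summed to 48.4 to 54.5 TPM in ArA and 45.3 to 52.2 TPM in control libraries. Fibroblast and adipocyte markers summed to 9.54 to 14.2 TPM in ArA and 10.7 to 11.8 TPM in control libraries. Leukocyte markers other than CD68 summed to 0.16 to 0.35 TPM in ArA and 0.16 to 0.63 TPM in control libraries, and the adipocyte genes ADIPOQ and LEP were listed at 0 throughout; CD68, which is also a lysosomal protein gene of other cells, had 217 to 267 TPM in ArA and 185 to 221 TPM in control libraries.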

How the data were processed

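RNA was sequenced from 3 ArA-treated and 3 control samples of MDA-MB-231 with Illumina TruSeq libraries, per the labels' protocols. The authors deposited TPM values, 1 column per library. The submitters' processing notes list HISAT2, StringTie, RSEM and hg38. In the sources used here, their versions, the annotation and the strandedness are not given. TPM keeps no read totals, so depth is unknown and no counting interval can be set. Of 63291 lines, 50 named no gene and were left out. The 12999 genes averaging 1 TPM or more were fitted on log2(TPM + 1), pseudocount 1, with limma 3.58.1 in R 4.3.3 (eBayes with trend, group as the only term, 2-sided, Benjamini-Hochberg, threshold 0.05). This scale understates the change of low genes, and the script was tested on simulated data. Ratios between genes had exact permutation tests, adjusted over the 6 ratios computed. Coordinates, overlaps and GC content came from GENCODE v29 on hg38 (longest transcript; 97.2% of tested genes had a value). Samples were grouped by their treatment label. The genes, lists and alternatives were chosen with earlier results of these data known. Named genes were the 10 genes of the route, the gene with the smallest p and any past the threshold in each neighbouring list, and SREBF1, MLXIPL, INSIG1, SCD, FADS1, FADS2, CPT1A and MLYCD, with the 2 nearest profiles of FASN, ACACA and ACLY; overlapping genes and markers were named after their values were seen. Alternatives were median-of-ratios scaling, quantile normalization, TPM recomputed after removal of mitochondrially encoded genes, pseudocount 0.1 or 5, no filter on low values, a minimum mean of 5 TPM, a replicate block, limma with no trend, with robust eBayes or with array weights, each library left out, and ArA replicate 1 with control replicate 2 left out. A GC correction (natural spline, 5 degrees of freedom), with and without the replicate block, was chosen after seeing the data.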

Additional observations from a re-analysis of the deposited data

How the results depend on the processing

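Over 20 alternatives, 0 of the 10 genes passed an adjusted p of 0.05 in limma; with array weights, 3 of 9 had an unadjusted p under 0.05, beside 24.5% of all tested genes, and the lowest adjusted p among the 10 genes was 0.0594, for OXSM. SLC25A1, ACACB, ME1, MID1IP1, OXSM and MCAT kept the sign of their difference in each alternative that tested them. ACLY and ACACA, whose main differences were 0.02 and 0.01, turned negative with median-of-ratios scaling (-0.0396 and -0.0467), with quantile normalization (-0.0631 and -0.0496), with TPM without mitochondrially encoded genes (-0.0452 and -0.0524), and after GC correction with or without the replicate block (-0.0440 and -0.0410). With each library left out in turn, the log2 fold change ranged from -0.0500 to 0.11 for ACLY, from -0.0637 to 0.10 for ACACA and from -0.00491 to 0.18 for FASN. It ranged from 0.02 to 0.22 for SLC25A1, 0.02 to 0.27 for ACACB, 0.05 to 0.32 for ME1, 0.08 to 0.19 for MID1IP1, 0.16 to 0.60 for OXSM and -0.17 to -0.07 for MCAT; these fits with 2 libraries in a group pool the spread, and the cause of the sign changes was not tested. The number of all genes past the threshold, 3 in the main analysis, was 0 with the replicate block, 214 with array weights, 5 after GC correction, 12 without both ArA replicate 1 and control replicate 2, and 0 to 7 with each library left out: 7 without ArA replicate 1 or control replicate 2, and 0 without ArA replicate 2 or control replicate 1. Genes with an unadjusted p under 0.05 numbered 232 with the replicate block, 228 without ArA replicate 2 and 413 without control replicate 1. Same-numbered libraries were not more alike than others, with deviations that correlated at -0.16, -0.28 and 0.11 over genes. Differently numbered pairs ranged from -0.24 to 0.29, the highest being ArA replicate 1 with control replicate 2. Whether same-numbered libraries came from paired cultures cannot be told from these correlations. With 3 libraries a group, the 95% intervals could not exclude folds of up to 1.19 for ACLY, 1.21 for ACACA, 1.27 for FASN and 1.85 for OXSM.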
